A study of Mus musculus with 24 samples.

Results

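Matrix metalloproteinases (MMP), their tissue inhibitors (TIMP) and the related ADAM and ADAMTS metalloproteases were described in mouse stromal vascular fraction cells before and after thermogenic adipocyte differentiation. Members were taken by symbol, as every row named Mmp, Timp, Adamts or Adam followed by a number. This gave 73 of the 24825 genes listed: 23 MMP, 4 TIMP, 19 ADAMTS and 27 ADAM genes. Of these, 36 reached at least 1 FPKM (fragments counted for a gene per kilobase of its length and per 1000000 in all) in at least 3 of the 24 libraries and are described here: 11 MMP, 3 TIMP, 13 ADAMTS and 9 ADAM genes. All 36 were among the 12640 genes tested, since the same minimum was used for both. In all 24 libraries 28 of the 36 were at 1 FPKM or more.

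MMPs are zinc proteases that cut collagens, gelatin and other matrix proteins, either secreted or anchored in the plasma membrane. TIMPs bind to their active sites and block them. ADAM proteases sit in the membrane and release the outer parts of receptors and ligands, whereas ADAMTS proteases are secreted and cut proteoglycans such as versican or trim procollagens. In adipose tissue the matrix around precursors is remodelled as cells round up and fill with lipid, and Mmp14 is known as a pericellular collagenase in that setting.

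The cells came from inguinal white adipose tissue of mice with floxed alleles of Nfia on both chromosomes, exon 2 being floxed, and were immortalised with SV40 large T antigen. The age of the mice is not given in the sources used here. All 8 groups share these alleles and the large T antigen. The 4 cell types were ctrl (empty retroviral vector), Cre (retroviral Cre recombinase), Cre + NFIA (with 3xFLAG-tagged full-length NFIA added) and Cre + NFIA Δpro#3 (with a 3xFLAG-tagged NFIA added without a proline-rich segment near the C-terminus). NFIA belongs to the nuclear factor I (NFI) transcription factors. Each cell type was sampled at day 0 and at day 7 in 3 replicates, after a cocktail of isobutylmethylxanthine, indomethacin, dexamethasone, insulin, T3 and rosiglitazone. The design asks what follows the targeting of Nfia and whether full-length NFIA or the mutant restores it. Whether replicates were separate cultures is not stated, so p-values measure the spread between these libraries, which may be technical.

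Promoters of the members with the largest changes are shown because they rose and fell together at day 7 (Mmp14, Mmp11, Timp1, Timp2), changed at day 0 (Timp3) or moved in 1 cell type (Mmp3). Each line gives the 250 bases before the RefSeq start site, 5′ to 3′ in the direction of the gene, on GRCm38.p6. Capitals mark matches, on either strand, to the AP-1 motif TGANTCA, the NFI core site TTGGCA, the SP and KLF motif GGGCGG or TATAAA.
Mmp14, chr14:54431348-54431597, + strand: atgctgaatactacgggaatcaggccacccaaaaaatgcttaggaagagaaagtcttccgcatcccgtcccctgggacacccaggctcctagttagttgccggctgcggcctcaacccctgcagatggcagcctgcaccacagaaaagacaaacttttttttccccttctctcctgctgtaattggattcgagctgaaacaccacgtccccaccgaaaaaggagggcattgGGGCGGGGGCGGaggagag
Mmp11, chr10:75932503-75932752, - strand: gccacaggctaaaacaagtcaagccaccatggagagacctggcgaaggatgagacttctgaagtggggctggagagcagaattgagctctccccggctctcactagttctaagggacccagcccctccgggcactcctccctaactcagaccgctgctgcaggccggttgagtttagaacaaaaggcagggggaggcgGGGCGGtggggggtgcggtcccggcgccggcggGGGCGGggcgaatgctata
Timp1, chrX:20869916-20870165, + strand: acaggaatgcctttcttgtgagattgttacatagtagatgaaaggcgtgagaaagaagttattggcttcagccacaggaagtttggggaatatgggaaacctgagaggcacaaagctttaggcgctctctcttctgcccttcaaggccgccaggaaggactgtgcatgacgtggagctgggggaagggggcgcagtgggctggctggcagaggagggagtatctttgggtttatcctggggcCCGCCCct
Timp2, chr11:118355412-118355661, - strand: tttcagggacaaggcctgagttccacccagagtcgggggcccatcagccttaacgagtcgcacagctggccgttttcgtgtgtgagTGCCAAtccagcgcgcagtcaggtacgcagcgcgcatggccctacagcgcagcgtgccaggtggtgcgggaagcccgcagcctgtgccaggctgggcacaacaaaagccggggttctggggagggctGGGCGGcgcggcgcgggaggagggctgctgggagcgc
Timp3, chr10:86300162-86300411, + strand: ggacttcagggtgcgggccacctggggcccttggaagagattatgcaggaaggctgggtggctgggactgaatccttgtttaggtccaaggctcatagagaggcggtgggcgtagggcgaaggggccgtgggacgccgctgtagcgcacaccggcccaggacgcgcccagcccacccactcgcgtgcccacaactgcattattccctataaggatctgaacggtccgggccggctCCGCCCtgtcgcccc
Mmp3, chr9:7445572-7445821, + strand: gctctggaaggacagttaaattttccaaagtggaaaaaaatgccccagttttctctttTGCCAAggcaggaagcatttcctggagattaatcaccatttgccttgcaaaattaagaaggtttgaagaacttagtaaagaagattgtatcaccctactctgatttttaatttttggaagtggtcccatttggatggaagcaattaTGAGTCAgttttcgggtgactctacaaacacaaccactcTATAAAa

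RefSeq promoters were matched for 22 of the 36 members, and Adam33 was among the members without an entry. GGGCGG was in the window of 16 of the 22 (72.7%), against 32.7% of all 32851 promoters in the table. Among the 6 shown it was in those of Mmp14, Mmp11, Timp1, Timp2 and Timp3. The AP-1 motif was in 2 of 22 (Adam19 and Mmp3) and in 6.75% of all promoters. TATAAA was in 2 of 22 (Adamts1 and Mmp3) and in 12.4% of all. The NFI core site was in 4 of 22 (Adam8, Mmp27, Mmp3 and Timp2), against 12.3% of all promoters. The full palindromic NFI site, in which TTGGC and its reverse complement flank a spacer, was in 0 of 22 windows and in 12 of 32851. These matches describe letters in a short window and were not tested. The shares over all promoters count every entry and include genes below the minimum used here, so they are not of a like set. Adam19 had 3 promoter entries and Mmp23 had 2, and each gene was counted once.

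Each library held 7.73 to 14.62 M reads (M, 1000000). At the gene level Nfia did not fall in libraries labelled Cre: day 0 levels were 6.23, 6.75 and 6.43 FPKM in ctrl and 6.81, 5.34 and 6.49 in Cre, and day 7 levels 9.81, 9.15 and 9.70 in ctrl and 10.7, 10.1 and 9.49 in Cre, so directions for Cre follow the label. This value counts all exons and does not measure the loss of exon 2, so it is no check of the deletion. Transgene reads included, day 0 levels were 74.9, 69.7 and 72.7 in Cre + NFIA and 61.7, 59.7 and 60.7 FPKM in the mutant, and those of day 7 were 97.1, 88.98 and 83.9 and 111, 99.5 and 94.98. Pdgfra, Pdgfrb, Ly6a, Cd34, Col1a1 and Col3a1, markers of adipose precursors and fibroblasts, were detected, whereas Dpp4, another of them, reached at most 6 reads. Adipocyte markers (Adipoq, Plin1, Fabp4, Cidec, Lep, Pparg) summed at day 7 to 19595 to 22967 FPKM in ctrl, 3732 to 8310.3 in Cre, 18216 to 18379 in Cre + NFIA and 621 to 1734 in Cre + NFIA Δpro#3. Lep, however, reached at most 12 reads. The 8 precursor markers summed in the same order to 1278 to 1394, 2269.8 to 2562, 989 to 1116 and 2499.9 to 2887 FPKM. Some of the listed markers of leukocytes (Ptprc, Adgre1, Itgam), endothelium (Cdh5, Cldn5), pericytes (Abcc9, Kcnj8), mesothelium (Msln, Upk3b), muscle (Myod1, Myog, Myh8, Ckm), epithelium (Epcam) and mast cells (Cpa3, Mcpt4) had 3 reads or fewer in every library. The other genes of these lists had more reads, namely Notch3 (at most 1548), Tek (430), Kit (288), Kdr (245), Csf1r and Cd14 (176 each), Cspg4 (173), Krt19 (145), Cd68 (131), Acta1 (126) and Lyz2 (57). Lower were Rgs5 (43), Vwf (33), Pecam1 (19), Wt1 (17), Lrrn4 (14), Cma1 (7), Cdh1 (6), Krt14 (5) and Krt5 (4). At day 7 the 7 leukocyte markers summed to 6.302 to 6.87 FPKM in ctrl, 8.43 to 10.1 in Cre, 5.93 to 7.29 in Cre + NFIA and 12.9 to 14.5 in the mutant, and the 5 pericyte markers to 10.7 to 11.1, 16.5 to 17.1, 8.12 to 8.94 and 13.6 to 16.8. Most of the pericyte sums came from Notch3. Only 2 pericyte markers met the minimum, and 1 was higher and 1 lower in Cre against ctrl, and again in Cre + NFIA against Cre. The summed muscle and mast cell markers were highest in Cre + NFIA, at 5.54 to 6.43 and 3.89 to 3.93 FPKM against 1.44 to 2.09 and 0.966 to 1.43 in Cre. In Cre + NFIA nearly all of these sums came from Acta1 and Kit. The other muscle markers had 3 reads or fewer in every library.

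Compared per gene length, Timp1, Timp2 and Mmp14 had the 3 highest group means of the members in ctrl at day 0. Their levels were 306 ± 18.98, 322 ± 1.24 and 252 ± 9.28 FPKM (SD, n = 3). Adam9, Adam15, Mmp23, Mmp2 and Timp3 followed between 84.5 and 118 FPKM. At the low end were Mmp3, Mmp27 and Mmp15, which stayed under 1 FPKM on average in ctrl at day 0. Summed over the 11 described MMPs, the level was 513 ± 18.2 FPKM in ctrl and 485 ± 11.1 in libraries labelled Cre at day 0. At day 7 it was 293 ± 18.7 FPKM in ctrl, 562 ± 27.6 in Cre, 236 ± 9.21 in Cre + NFIA and 693 ± 27.6 in Cre + NFIA Δpro#3. Mmp14 and Mmp2 together made 62.6 ± 1.39% of that sum in ctrl and 79.4 ± 0.485% in the mutant at day 7. The 3 TIMPs summed to 271 ± 34.2, 604 ± 51.6, 208 ± 8.09 and 744 ± 14.4 FPKM at day 7 in the same order. Thus proteases and inhibitors were high in the same cell types at day 7. The ratio of the MMP sum to the TIMP sum lay at 1.01 to 1.13 in ctrl, 0.895 to 0.961 in Cre, 1.11 to 1.15 in Cre + NFIA and 0.907 to 0.945 in the mutant. At day 0 it was lower in every group, from 0.396 to 0.416 in Cre + NFIA to 0.711 to 0.739 in ctrl. These sums are descriptions of mRNA levels and were not tested.

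**Figure D1:**
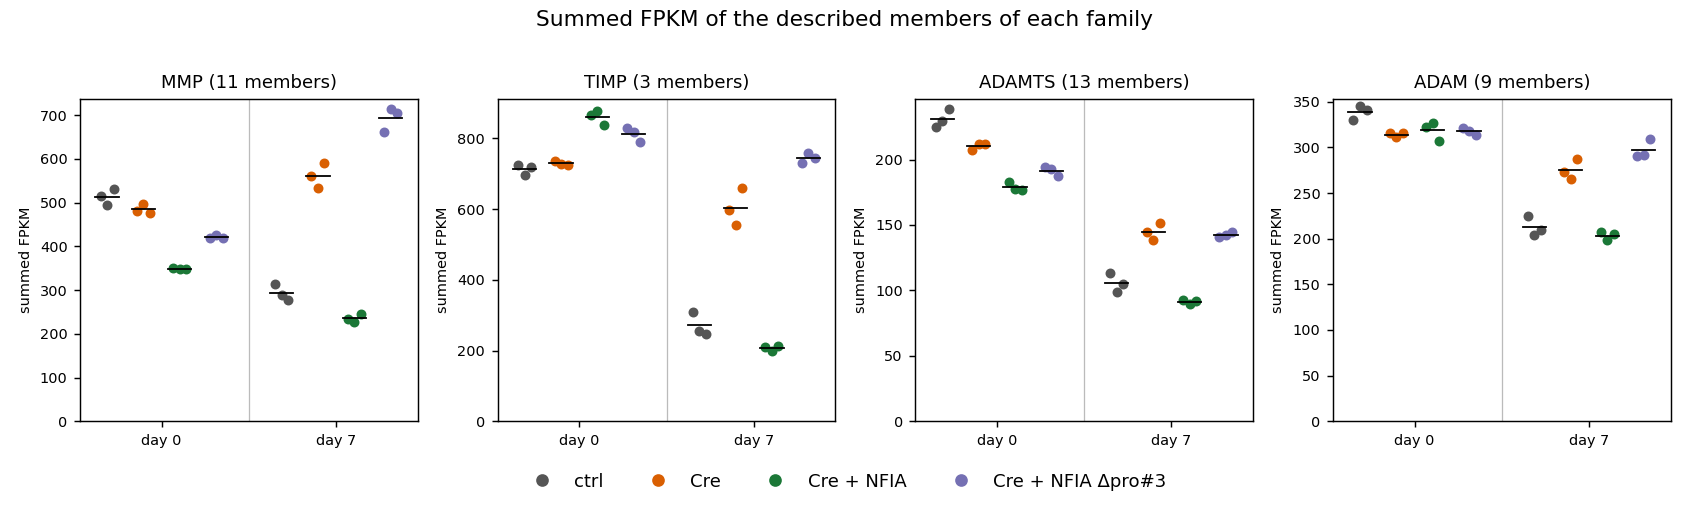
Summed FPKM (y axis) of the described MMP, TIMP, ADAMTS and ADAM genes in each of the 24 libraries, with day 0 left and day 7 right of the grey line, colours for cell types and black lines for group means. At day 7 ctrl and Cre + NFIA lie below Cre and Cre + NFIA Δpro#3 in all 4 panels, and at day 0 the MMP sum is lowest in Cre + NFIA.

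At day 7, 26 of the 36 members were higher and 2 lower in Cre (named so by label) against ctrl, at a limma adjusted p under 0.05 (77.8%, against 58.8% of all genes tested, 36.1% higher and 22.7% lower). The median log2 fold change was 0.59 over the members and 0.091 over all genes. Against Cre, Cre + NFIA had 28 members lower and 2 higher (83.3%, all genes 63%, 27% higher and 35.9% lower), with medians of -0.57 and -0.057. Cre + NFIA Δpro#3 against Cre gave 8 higher and 6 lower (38.9%, all genes 17.7%, 7.7% higher and 10% lower), with medians of 0.070 and 0.018. Under quantile normalization this last split was 11 higher and 5 lower. These comparisons share the Cre libraries, so they are not independent of each other. The mutant against full-length NFIA gave 26 higher and 5 lower (86.1%, all genes 69.2%, 40.4% higher and 28.9% lower). Cre + NFIA against ctrl gave 1 higher and 12 lower (36.1%, all genes 18%, 8.81% higher and 9.15% lower). All fold changes are of log2(FPKM + 1), which lessens those of genes at low FPKM. At 3-fold or more, 0 members passed in Cre against ctrl (all genes 1.51%), 4 in Cre + NFIA against Cre (all genes 3.63%) and 1 in the mutant against Cre (all genes 0.625%). Mutant against Cre + NFIA gave 5 (all genes 6.92%) and Cre + NFIA against ctrl 0 (all genes 0.301%). The 1 member in the mutant against Cre, and 1 of the 5, was Mmp3, which met the minimum only through the mutant libraries of day 7, so these counts are partly fixed by that minimum. Mmp3 is also among the members counted as higher in the mutant above, as is Mmp27, which would not have met the minimum without those libraries. In bulk RNA, fewer cells of a type and less RNA per cell cannot be told apart. The summed adipocyte, precursor, leukocyte, pericyte, muscle and mast cell markers given above differed between these groups. The pericyte sums came mostly from Notch3, and the muscle and mast cell sums of Cre + NFIA from Acta1 and Kit. The part of these markers in the member changes was not tested.

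**Figure D2:**
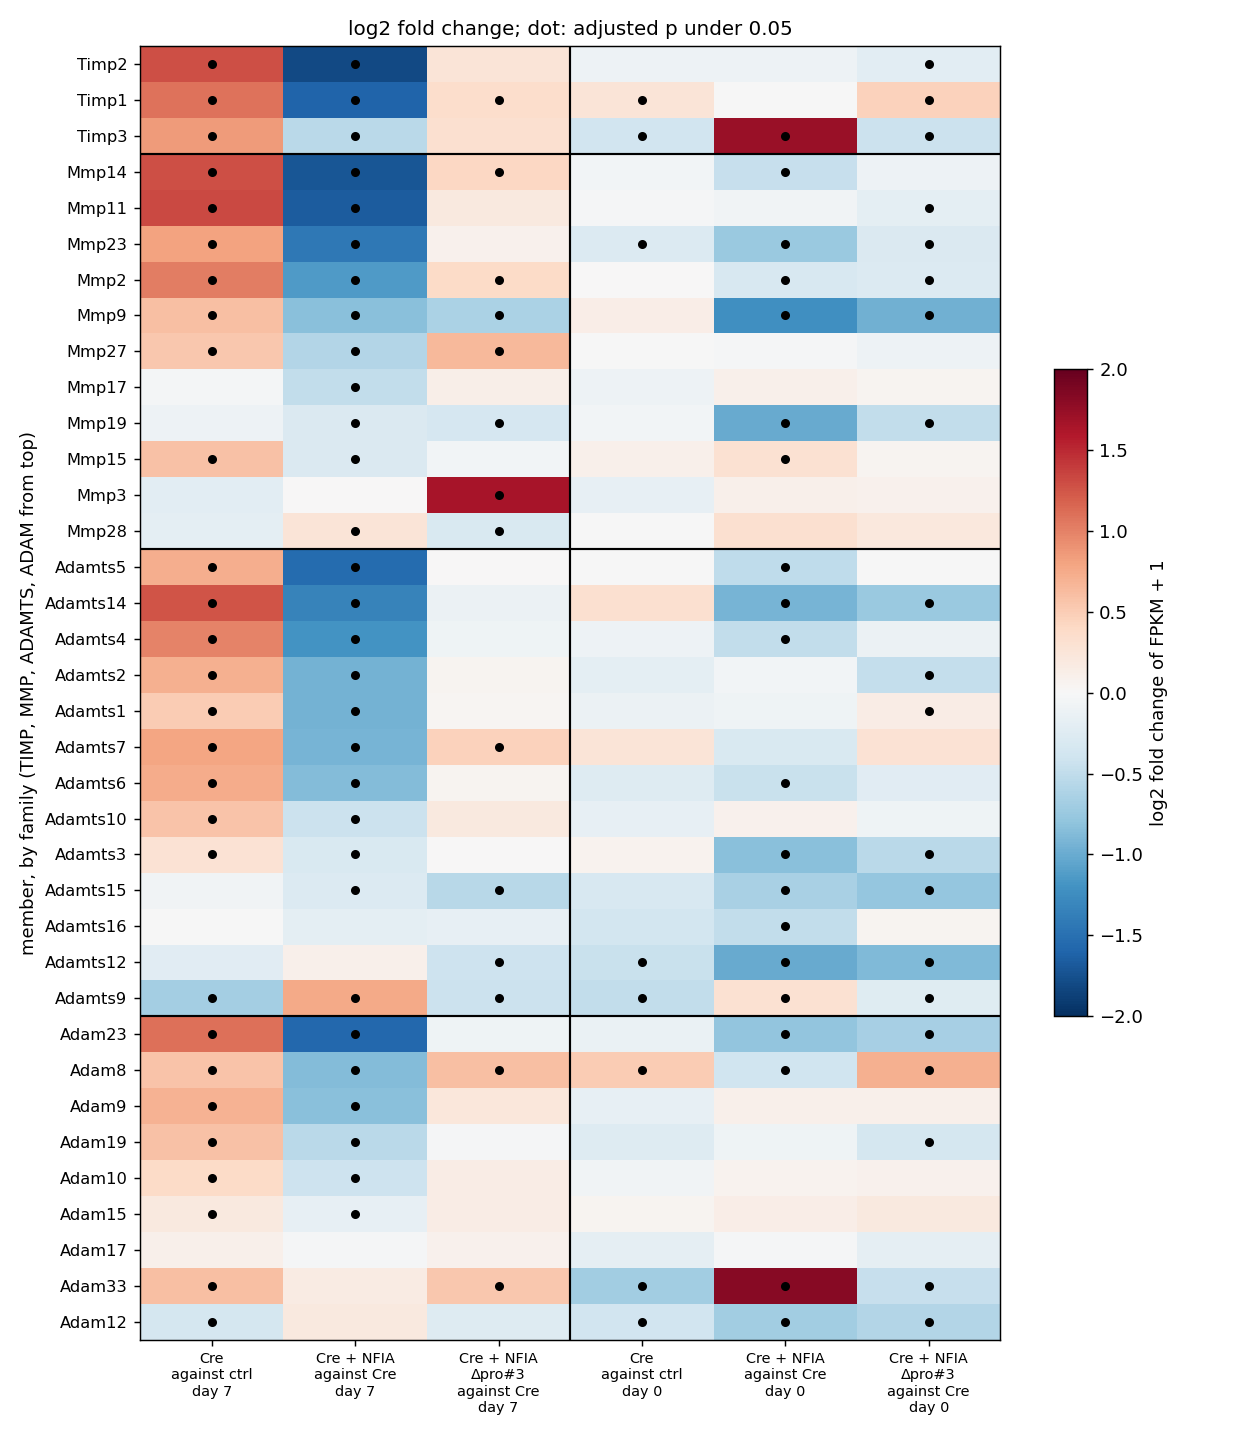
Log2 fold change of FPKM + 1 (colour) for the 36 described members (rows, by family and by the change in Cre + NFIA against Cre at day 7) in 3 comparisons at day 7 and 3 at day 0 (columns). A dot marks a limma adjusted p under 0.05, and most rows are red in the Cre against ctrl column and blue in the Cre + NFIA against Cre column at day 7.

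All 3 described inhibitors changed at day 7. Timp1, a secreted inhibitor of most MMPs, lies on chromosome X from 20447292 to 20451861 (mm9, as are all gene positions here, from the GENCODE vM1 annotation). Day 7 levels in FPKM were 129, 120.1 and 102 in ctrl, 242, 233 and 272 in Cre, 81.5, 76.6 and 84.99 in Cre + NFIA and 313, 333 and 303 in Cre + NFIA Δpro#3. The 4 groups did not overlap, with the mutant highest and Cre + NFIA lowest. The log2 fold change was 1.09 (SE 0.087, limma adjusted p = 1.52e-06) in Cre against ctrl and -1.61 (SE 0.087, limma adjusted p = 3.84e-08) in Cre + NFIA against Cre. Mutant against Cre was 0.34 (SE 0.087, limma adjusted p = 0.0177), and without replicate 1 or 2 of either group that difference no longer passed. Timp1 lies within Syn1 on the opposite strand, and counting used strand.

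Timp2 inhibits MMPs and also takes part, with Mmp14, in the activation of pro-MMP2 at the cell surface. It lies on chromosome 11 from 118162383 to 118217054. Its values at day 7 were 137, 104 and 111 FPKM in ctrl, 287, 263 and 315 in Cre, 84.6, 76.7 and 83.1 in Cre + NFIA and 331, 341 and 364 in Cre + NFIA Δpro#3. The groups stood in the order seen for Timp1 and did not overlap. The log2 fold change of Cre over ctrl was 1.29 (SE 0.10, limma adjusted p = 1.08e-06), and that of Cre + NFIA over Cre was -1.81 (SE 0.10, limma adjusted p = 3.57e-08), a fall of over 3-fold. The mutant and Cre differed by 0.26 (SE 0.10, limma adjusted p = 0.0859), which did not pass.

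Timp3 is bound to the matrix and inhibits ADAM17, ADAMTS4 and ADAMTS5 besides MMPs. It lies on chromosome 10 from 85763117 to 85812251, within Syn3 on the other strand, whose exons overlap its own. Day 7 levels in FPKM were 44.4, 32.01 and 33.98 in ctrl, 68.3, 60.03 and 71.4 in Cre, 44.3, 45.3 and 46.1 in Cre + NFIA and 85.7, 84.8 and 77.9 in Cre + NFIA Δpro#3. Here ctrl and Cre + NFIA overlapped, and Cre and the mutant were higher without overlap. The changes were smaller than those of Timp1 and Timp2 in these fits, at 0.85 (SE 0.10, limma adjusted p = 2.78e-05) in Cre against ctrl and -0.54 (SE 0.10, limma adjusted p = 6.39e-04) in Cre + NFIA against Cre. Timp3 did not pass in Cre + NFIA against ctrl, at 0.30 (SE 0.10, limma adjusted p = 0.0641).

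Of the membrane-anchored MMPs, Mmp14 had the highest level. Mmp14, which cuts fibrillar collagen and activates pro-MMP2, lies on chromosome 14 from 55050441 to 55060095. At day 7 ctrl libraries read 111, 98.3 and 92.8 FPKM, with 244, 232 and 266 in Cre, 73.2, 73.03 and 77.8 in Cre + NFIA and 317, 339 and 326 in Cre + NFIA Δpro#3. No groups overlapped, and the mutant was again above Cre. The log2 fold change was 1.29 (SE 0.070, limma adjusted p = 2.66e-07) for Cre against ctrl, -1.71 (SE 0.070, limma adjusted p = 7.74e-09) for Cre + NFIA against Cre and 0.41 (SE 0.070, limma adjusted p = 0.00233) for the mutant against Cre. Between the mutant and full-length NFIA the difference was 2.12 (SE 0.070, limma adjusted p = 1.13e-09), the largest of the 36 members in that comparison. Mmp23, a membrane-anchored member with a cysteine-rich domain, went from 46.3 ± 1.88 FPKM in Cre to 16.5 ± 0.893 in Cre + NFIA (SD, n = 3), a log2 fold change of -1.44 (SE 0.092, limma adjusted p = 1.18e-07). Mmp15 and Mmp17 were low, at 3.59 ± 0.372 and 2.13 ± 0.162 FPKM in Cre, and were lower with full-length NFIA at log2 fold changes of -0.28 and -0.50. The smaller of these, that of Mmp15, did not pass under either of the other scalings tried.

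Of the secreted MMPs, Mmp11 (stromelysin-3, activated inside the cell by furin) lies on chromosome 10 from 75385967 to 75400678, and its exons overlap those of Gm867 on the same strand, so its reads may include those of that gene. Levels of Mmp11 in FPKM were 11.99, 10.5 and 10.4 in ctrl, 29.99, 25.4 and 31.3 in Cre, 8.46, 9.12 and 7.68 in Cre + NFIA and 35.3, 33.3 and 30.8 in Cre + NFIA Δpro#3 at day 7. Cre and the mutant overlapped, and both lay above ctrl and Cre + NFIA. The changes were 1.32 (SE 0.090, limma adjusted p = 6.75e-07) in Cre against ctrl and -1.66 (SE 0.090, limma adjusted p = 3.84e-08) in Cre + NFIA against Cre. Mmp2 (gelatinase A), the target of Mmp14, was at 83.004 ± 6.54 FPKM in ctrl, 170.2 ± 6.43 in Cre, 77.5 ± 4.89 in Cre + NFIA and 223 ± 15.2 in the mutant (SD, n = 3). It rose in the mutant against Cre by 0.39 (SE 0.071, limma adjusted p = 0.0035). Mmp9 (gelatinase B), in contrast, was near 1 FPKM and lower in the mutant than in Cre, at 1.27 ± 0.0708 in Cre and 0.465 ± 0.0489 in the mutant, -0.63 (SE 0.14, limma adjusted p = 0.00951). Mmp19 and Mmp28 also fell in the mutant against Cre, at -0.33 and -0.31 on the log2 scale. Mmp28 was 1 of 2 members higher in Cre + NFIA than in Cre at day 7, at 0.26 (SE 0.093, limma adjusted p = 0.0285).

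Mmp3 (stromelysin-1, which cuts proteoglycans and activates other MMPs) lies on chromosome 9 from 7445822 to 7455972 and had few reads. In Cre + NFIA Δpro#3 at day 7 it had 65, 63 and 91 reads, or 3.09, 2.89 and 3.98 FPKM. The other groups of day 7 held 0.498, 0.370 and 0.984 FPKM in ctrl, 0.324, 0.303 and 0.503 in Cre and 0.455, 0.490 and 0.228 in Cre + NFIA. At day 0 no library held more than 4 reads, and the 3 Cre libraries had 0, against a floor of 3 reads per library. Mmp3 was thus described through 1 group alone, and the mutant libraries lay above all others. Since day 0 lay near the floor, fitted changes of Mmp3 over the days depend on the pseudocount. At day 7 the mutant differed by 1.65 from Cre and 1.63 from Cre + NFIA on the log2 scale, given as a description with no test, since Mmp3 met the minimum only through the mutant libraries. Mmp27, from the same gene cluster on chromosome 9, was at 2.22 ± 0.217 FPKM in the mutant and 1.06 ± 0.342 in Cre. The log2 fold change of 0.65 is likewise given with no test, since Mmp27 would not have met the minimum without the mutant libraries. The promoter of Mmp3 shown above was the only 1 of the 6 with the AP-1 motif and with TATAAA. Its NFI core site was found also in the promoters of Mmp27, Adam8 and Timp2.

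Most ADAMTS members were higher in Cre than in ctrl at day 7 and lower again with full-length NFIA. Of 13, 9 were higher and 1 lower in Cre against ctrl, and 10 were lower and 1 higher in Cre + NFIA against Cre, with medians of 0.57 and -0.86. Of all genes 36.1% were higher and 22.7% lower in the former, and 27% higher and 35.9% lower in the latter. Adamts5 and Adamts4, the aggrecanases, were at 19.4 ± 1.09 and 8.58 ± 0.754 FPKM in Cre and 6.02 ± 0.224 and 3.18 ± 0.217 in Cre + NFIA. Their log2 fold changes were -1.54 (SE 0.11, limma adjusted p = 3.25e-07) and -1.20 (SE 0.078, limma adjusted p = 1.28e-07). Of the procollagen N-proteinases, Adamts2 was at 42.3 ± 2.06 FPKM in Cre and 21.4 ± 0.707 in Cre + NFIA, and Adamts14 at 7.79 ± 0.689 and 2.48 ± 0.109. Both fell, with log2 fold changes of -0.95 and -1.33. Adamts3, at 0.323 ± 0.0700 FPKM in Cre and 0.0657 ± 0.0479 in Cre + NFIA, was at -0.31, a call lost under quantile normalization. Adamts9, a versican-cutting protease, ran the other way. Its mean level was 24.5 ± 1.23 FPKM in ctrl, 14.999 ± 1.14 in Cre, 26.2 ± 1.23 in Cre + NFIA and 10.9 ± 1.81 in the mutant. The log2 fold change was -0.68 (SE 0.10, limma adjusted p = 9.06e-05) in Cre against ctrl and 0.77 (SE 0.10, limma adjusted p = 2.50e-05) in Cre + NFIA against Cre. Adamts9 was lower still in the mutant than in Cre, -0.44 (SE 0.10, limma adjusted p = 0.0092). Adamts12 (known to cut cartilage oligomeric matrix protein) and Adamts15 also fell in the mutant against Cre, at -0.41 and -0.55.

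Of the 9 ADAM members, 7 were higher and 1 lower in Cre against ctrl at day 7, and 6 were lower in Cre + NFIA against Cre, with medians of 0.56 and -0.42, where 58.8% and 63% of all genes passed in either direction. Adam10 and Adam17, the main sheddases of Notch and of tumour necrosis factor, were at 22.5 ± 2.32 and 18.98 ± 1.67 FPKM in Cre at day 7. Adam10 was higher in Cre than in ctrl, at 0.39 (SE 0.090, limma adjusted p = 0.00288), and lower in Cre + NFIA than in Cre, at -0.42 (SE 0.090, limma adjusted p = 0.00149). Adam17 did not pass in any of the 5 comparisons at day 7, with log2 fold changes between -0.017 and 0.10. Adam23, which lacks protease activity and binds integrins, had the largest fold changes of the ADAM genes in both, from 14.95 ± 2.11 FPKM in ctrl to 32.9 ± 2.75 in Cre and 10.5 ± 0.693 in Cre + NFIA. Its log2 fold changes were 1.09 (SE 0.10, limma adjusted p = 4.52e-06) and -1.57 (SE 0.10, limma adjusted p = 1.50e-07). Adam9, the ADAM with the highest level in ctrl at day 0, fell with full-length NFIA, at -0.83 (SE 0.074, limma adjusted p = 1.44e-06). Adam8, a sheddase of adhesion molecules, was lower in Cre + NFIA than in Cre, at -0.86 (SE 0.11, limma adjusted p = 3.06e-05), and higher in the mutant than in Cre, at 0.61 (SE 0.11, limma adjusted p = 0.00336). Adam12, which cuts insulin-like growth factor binding proteins, was lower in Cre than in ctrl, at -0.35 (SE 0.090, limma adjusted p = 0.00544).

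At day 0, before differentiation, Cre + NFIA against Cre gave 4 higher and 16 lower (55.6%, all genes 27.6%, 14.7% higher and 12.9% lower), with medians of -0.10 over the members and 0.019 over all genes. The mutant against Cre gave 3 higher and 17 lower (55.6%, all genes 18.3%, 9.26% higher and 9.02% lower), and the mutant against full-length NFIA 11 higher and 4 lower (41.7%, all genes 10.1%, 4.5% higher and 5.59% lower). Cre + NFIA against ctrl gave 5 higher and 20 lower (69.4%, all genes 33.1%, 18.8% higher and 14.3% lower). Adamts16, among the 20, would not have met the minimum without the ctrl libraries of day 0, so that count is partly fixed by the minimum. Cre against ctrl gave 2 higher (Adam8 and Timp1) and 6 lower (22.2%, all genes 3.33%, 1.63% higher and 1.7% lower). With only those 2 groups in the limma model 0 of 36 passed and 15 were under 0.05 before adjustment, while limma voom on recovered reads gave 9. Without replicate 1 or 3 of ctrl 5 passed, and without replicate 2 or 3 of Cre 4 did. Under median-of-ratios size factors the split was 1 higher and 6 lower, and under quantile normalization 1 and 7. At 3-fold or more, 2 members passed in Cre + NFIA against Cre (all genes 0.538%) and 2 in the mutant against Cre + NFIA (all genes 0.19%). There were 0 in Cre against ctrl (all genes 0.0237%), the mutant against Cre (all genes 0.142%) and Cre + NFIA against ctrl (all genes 0.435%). At day 0 the adipocyte markers summed to 13.6 to 23.3 FPKM in Cre and 25.7 to 28.5 in Cre + NFIA, and the precursor markers to 3568 to 3836 and 3113 to 3248. The part of these in the changes was not tested.

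Timp3 and Adam33 stood out at day 0 as the 2 members higher by over 3-fold with full-length NFIA. Timp3 was at 82.1, 89.2 and 82.1 FPKM in ctrl, 64.3, 66.1 and 63.5 in Cre, 211, 227 and 213 in Cre + NFIA and 49.9996, 45.7 and 46.97 in Cre + NFIA Δpro#3. The groups did not overlap, and Cre + NFIA was above all others. The log2 fold change was 1.73 (SE 0.048, limma adjusted p = 6.44e-09) against Cre and 1.35 (SE 0.048, limma adjusted p = 4.05e-08) against ctrl. The mutant was lower than Cre, -0.44 (SE 0.048, limma adjusted p = 2.13e-04), and than full-length NFIA, -2.17 (SE 0.048, limma adjusted p = 2.42e-09). Cre was lower than ctrl, -0.38 (SE 0.048, limma adjusted p = 0.00269), a difference that did not pass with only those groups in the model. Timp3 made 25.2 ± 0.738% of the summed TIMP level in Cre + NFIA and 8.85 ± 0.195% in Cre at day 0. The summed endothelial and mesothelial markers were also higher in Cre + NFIA, at 8.95 to 10.2 and 6.06 to 6.75 FPKM against 5.89 to 6.70 and 1.22 to 2.21 in Cre. Among them Cdh5, Cldn5, Msln and Upk3b had 3 reads or fewer in every library, and most of the sums came from Tek, Kdr and Krt19. The part of these markers in the Timp3 values was not tested.

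Adam33, a membrane protease expressed in mesenchymal cells, lies on chromosome 2 from 130876327 to 130889550. Day 0 levels in FPKM were 3.20, 2.77 and 3.65 in ctrl, 1.18, 2.21 and 1.51 in Cre, 9.29, 7.17 and 8.06 in Cre + NFIA and 0.787, 1.004 and 0.892 in Cre + NFIA Δpro#3. Again the groups did not overlap and Cre + NFIA was highest. The changes were 1.81 (SE 0.14, limma adjusted p = 7.14e-06) in Cre + NFIA against Cre and -2.27 (SE 0.14, limma adjusted p = 4.31e-06) in the mutant against full-length NFIA. For Cre over ctrl it was -0.69 (SE 0.14, limma adjusted p = 0.0289) and for the mutant over Cre -0.46 (SE 0.14, limma adjusted p = 0.0477), and both of these were lost when any of several libraries was left out, and with no filter on low values. At day 7 Adam33 was at 1.01, 1.18 and 1.19 FPKM in ctrl, 2.22, 1.83 and 2.66 in Cre, 2.83, 2.11 and 2.94 in Cre + NFIA and 4.80, 3.11 and 3.34 in the mutant. Cre and Cre + NFIA overlapped at day 7, with a log2 difference of 0.16 (SE 0.15, limma adjusted p = 0.351). It was the only member higher in Cre + NFIA than in ctrl at day 7, 0.77 (SE 0.15, limma adjusted p = 0.00404). In the mutant it was higher than in Cre, 0.54 (SE 0.15, limma adjusted p = 0.0235), but without replicate 1 of the mutant, or replicate 1 or 2 of Cre, this did not pass.

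Timp1 and Timp2 were less different at day 0. Timp1 was at 319, 284 and 315 FPKM in ctrl, 365, 363 and 365 in Cre, 376, 357 and 357 in Cre + NFIA and 523, 505 and 485 in the mutant. Cre and Cre + NFIA overlapped, and the mutant was above both. Mutant against Cre was 0.47 (SE 0.050, limma adjusted p = 1.84e-04), and Cre + NFIA against Cre was -0.0053 (SE 0.050, limma adjusted p = 0.958). Timp2 lay at 323, 321 and 321 FPKM in ctrl, 307, 299.8 and 297 in Cre, 279, 294 and 269 in Cre + NFIA and 255, 266 and 258 in the mutant, groups that did not overlap. On the log2 scale the mutant differed from Cre by -0.21 (SE 0.039, limma adjusted p = 0.00406) and Cre + NFIA from Cre by -0.10 (SE 0.039, limma adjusted p = 0.075), of which the former passed.

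Among the MMPs of day 0, Mmp14 was at 248, 246 and 263 FPKM in ctrl, 241, 252 and 235 in Cre, 178, 173 and 177 in Cre + NFIA and 222, 228 and 224 in the mutant. Cre + NFIA was lowest, -0.46 (SE 0.040, limma adjusted p = 1.45e-05) against Cre, and ctrl and Cre overlapped. Mmp11 was at 34.1, 31.7 and 34.6 FPKM in ctrl, 31.7, 32.4 and 34.6 in Cre, 31.2, 32.96 and 29.6 in Cre + NFIA and 26.5, 30.2 and 29.02 in the mutant at day 0. Neighbouring groups overlapped. The mutant was lower than Cre, -0.20 (SE 0.062, limma adjusted p = 0.0472), a call lost in most of the settings tried. Mmp9 and Mmp19 had the largest falls of the MMPs with full-length NFIA at day 0. Mmp9 went from 1.58 ± 0.155 FPKM in Cre to 0.102 ± 0.0145 in Cre + NFIA and 0.329 ± 0.179 in the mutant (SD, n = 3), with log2 fold changes of -1.22 (SE 0.11, limma adjusted p = 1.53e-05) and -0.96 (SE 0.11, limma adjusted p = 2.13e-04). Mmp19, which cuts basement membrane proteins, went from 42.01 ± 3.05 to 20.4 ± 1.32 and 29.5 ± 0.445 FPKM, with -1.01 (SE 0.057, limma adjusted p = 8.38e-07) and -0.50 (SE 0.057, limma adjusted p = 2.76e-04).

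Several ADAMTS and ADAM members were lower at day 0 with full-length NFIA and with the mutant. Adamts12 was at 3.998 ± 0.390 FPKM in Cre, 1.48 ± 0.161 in Cre + NFIA and 1.71 ± 0.198 in the mutant, or -1.01 (SE 0.087) and -0.88 (SE 0.087) on the log2 scale. Adamts14 was at 9.08 ± 0.947, 4.28 ± 0.227 and 5.05 ± 0.288 FPKM in that order. Adamts3, known for processing vascular endothelial growth factor C, was at -0.84 (SE 0.085) and -0.54 (SE 0.085) on the log2 scale, both of which passed. Adam23 and Adam12 fell too, with -0.78 (SE 0.054) and -0.69 (SE 0.060) in Cre + NFIA and -0.66 (SE 0.054) and -0.59 (SE 0.060) in the mutant. Adamts5 and Adamts4 were lower with full-length NFIA, -0.51 (SE 0.073, limma adjusted p = 4.61e-04) and -0.50 (SE 0.091, limma adjusted p = 0.00228), and in the mutant differed from Cre by -0.013 and -0.12, which did not pass. The difference between mutant and full-length NFIA passed for both, at 0.49 (SE 0.073, limma adjusted p = 0.00122) and 0.38 (SE 0.091, limma adjusted p = 0.023). Adam8 went opposite ways, lower with full-length NFIA at -0.40 (SE 0.10, limma adjusted p = 0.015) and higher with the mutant at 0.70 (SE 0.10, limma adjusted p = 0.00116).

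**Figure D3:**
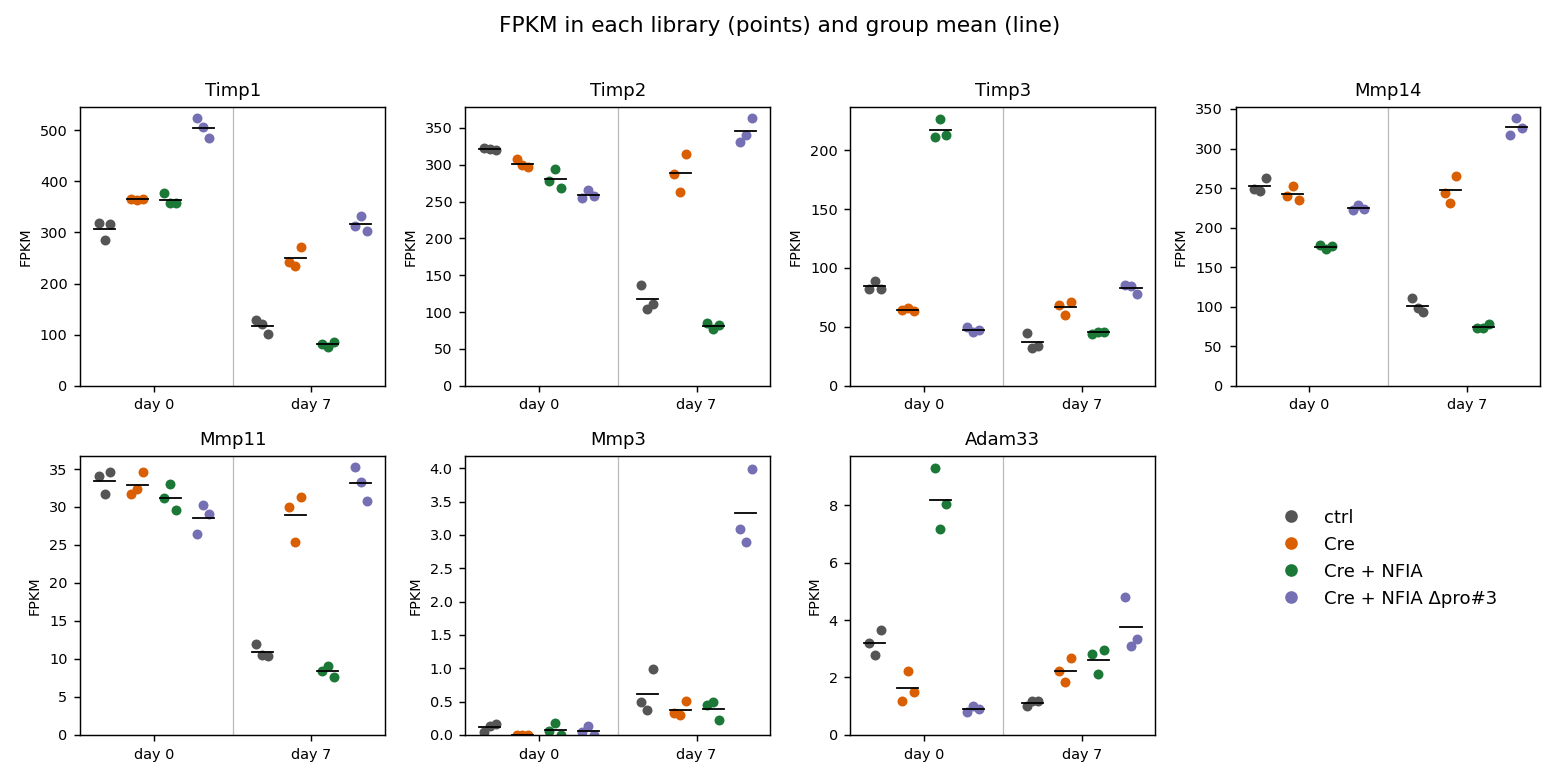
FPKM (y axis, linear from 0) of Timp1, Timp2, Timp3, Mmp14, Mmp11, Mmp3 and Adam33 in each of the 24 libraries, with 3 points per group, black lines for means and colours for cell types, day 0 left and day 7 right of the grey line. Timp3 and Adam33 peak in Cre + NFIA at day 0, Mmp3 in Cre + NFIA Δpro#3 at day 7, and Timp1, Timp2, Mmp14 and Mmp11 are low in ctrl and Cre + NFIA at day 7.

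During differentiation, 26 of the 36 members fell and 7 rose from day 0 to day 7 in ctrl (91.7%, all genes 71%, 32.9% higher and 38.1% lower). Adamts16, among the 26, would not have met the minimum without the ctrl libraries of day 0. In Cre + NFIA 23 fell and 7 rose (83.3%, all genes 70.1%, 31.8% higher and 38.3% lower). In libraries labelled Cre 13 fell and 11 rose (66.7%, all genes 51.7%, 30% higher and 21.6% lower), a split of 18 and 9 under quantile normalization. In the mutant 12 fell and 18 rose (83.3%, all genes 41.5%, 24.5% higher and 17% lower). Mmp3 and Mmp27 are among the 18, and neither would have met the minimum without the mutant libraries of day 7. That count is thus partly fixed by the minimum. The median log2 change over the members was -0.76 in ctrl, -0.15 in Cre, -0.59 in Cre + NFIA and 0.19 in the mutant, and over all genes -0.053, 0.055, -0.048 and 0.047. By over 3-fold on the scale of log2(FPKM + 1), 3 members fell in ctrl (Adamts5, Adamts7 and Mmp23, all genes 8.5%). In Cre + NFIA 7 did (Adamts1, Adamts5, Adamts7, Mmp11, Timp1, Timp2 and Timp3, all genes 9.08%). In Cre 0 passed at that size (all genes 2.73%), and 2 rose by it in the mutant (Mmp2 and Mmp3, all genes 1.46%), of which Mmp3 started near the floor and met the minimum through these libraries alone. That scale lessens the changes of members at low FPKM, so some larger ratios are not counted. Among them, Adamts3 fell in ctrl from 1.71 to 0.0857 FPKM, and Mmp15 rose in Cre from 0.704 to 3.59 FPKM.

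Timp3 fell from day 0 to day 7 in Cre + NFIA, -2.24 (SE 0.085, limma adjusted p = 2.86e-15), and in ctrl, -1.19 (SE 0.085, limma adjusted p = 6.49e-11). In Cre the change was 0.038 (SE 0.085, limma adjusted p = 0.732), and in the mutant Timp3 rose, 0.79 (SE 0.085, limma adjusted p = 2.11e-07). Timp1 fell in all 4 cell types, with log2 changes of -1.39 in ctrl, -0.55 in Cre, -2.15 in Cre + NFIA and -0.67 in the mutant. Mmp14 fell in ctrl and Cre + NFIA, -1.32 (SE 0.058, limma adjusted p = 2.53e-14) and -1.23 (SE 0.058, limma adjusted p = 6.93e-14), did not pass in Cre, 0.025 (SE 0.058, limma adjusted p = 0.747), and rose in the mutant, 0.54 (SE 0.058, limma adjusted p = 1.78e-07). Mmp2 rose in Cre and the mutant, 0.96 (SE 0.057, limma adjusted p = 1.85e-11) and 1.62 (SE 0.057, limma adjusted p = 1.30e-14). It rose less in Cre + NFIA, 0.16 (SE 0.057, limma adjusted p = 0.0178), and did not pass in ctrl, at -0.068. Mmp28 and Mmp15, by contrast, rose in all 4 cell types, as did Mmp19, Adam12 and Adamts12. Mmp28 (epilysin) went from 4.29 ± 0.646 to 11.99 ± 0.332 FPKM in ctrl, 1.30 (SE 0.13, limma adjusted p = 1.47e-08). Adamts5 and Adamts1 fell in all 4, between -1.30 and -2.35 for Adamts5. Adamts12 rose most in Cre + NFIA, from 1.48 ± 0.161 to 6.16 ± 0.176 FPKM, 1.53 (SE 0.091, limma adjusted p = 3.36e-12), where its day 0 level was lowest.

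**Figure D4:**
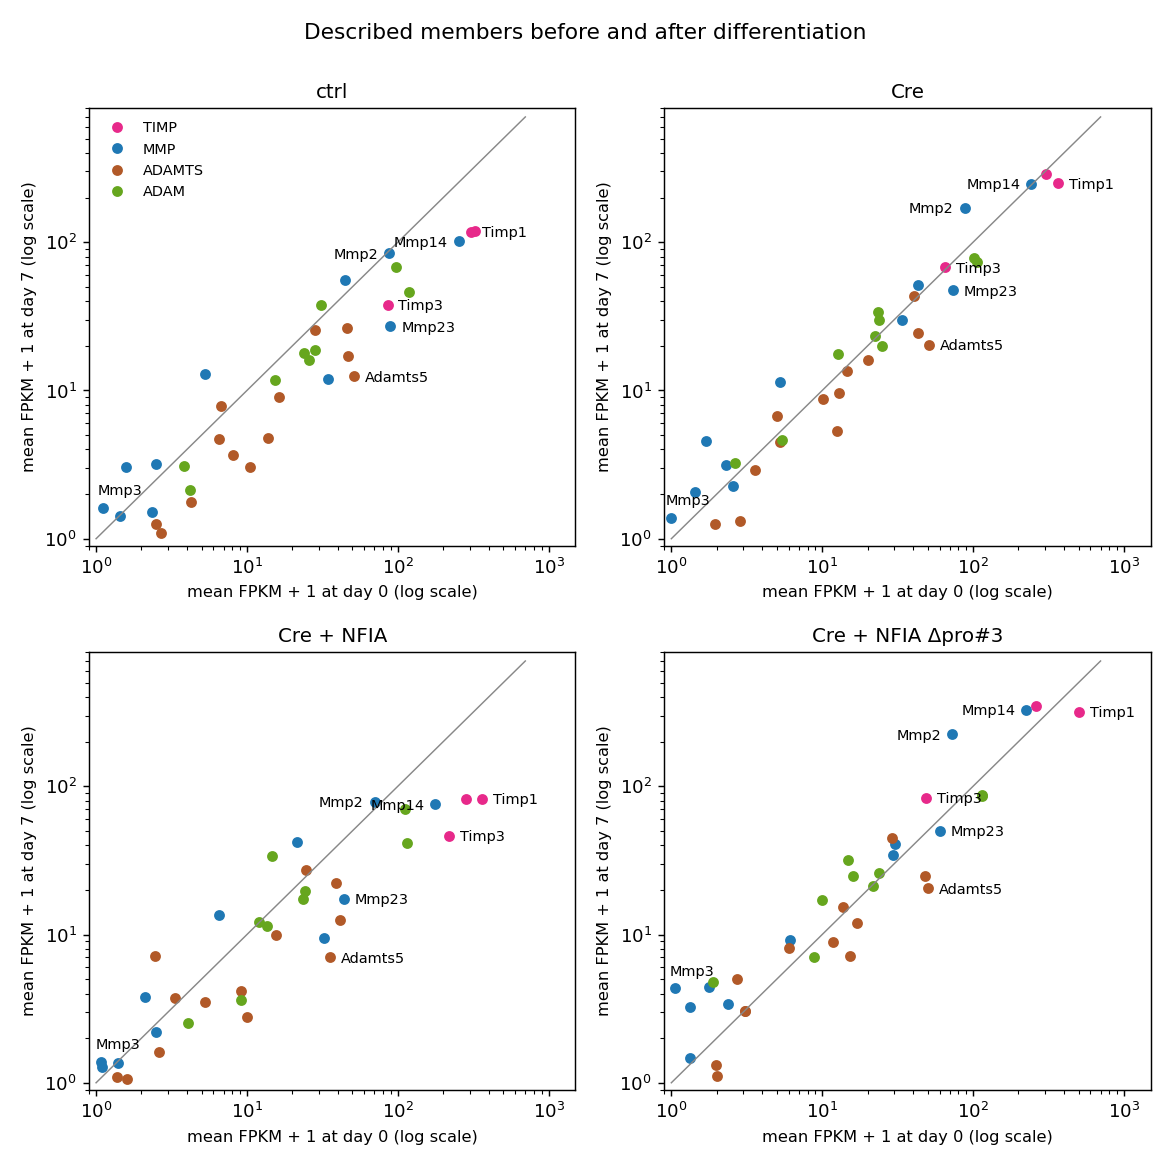
Mean FPKM + 1 of the 36 described members at day 0 (x axis) and day 7 (y axis), both on log scales, in 4 panels for the cell types, with colours for families and a grey line of equal values. In ctrl and Cre + NFIA most points lie below the line, whereas in Cre Mmp2, and in Cre + NFIA Δpro#3 Mmp2 and Mmp14, lie above it.

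Whether a cell type difference was itself unequal at day 7 and day 0 was tested over the 24 libraries. For Cre against ctrl 25 members shifted upward and 0 downward at day 7 relative to day 0 (69.4%, all genes 49.2%, 29.7% higher and 19.5% lower). The 25 include Adamts16, which would not have met the minimum without the ctrl libraries of day 0. Downward shifts were 0 also at an unadjusted p under 0.05 and by limma voom on recovered reads, whereas under median-of-ratios size factors Adamts9 shifted downward. For Cre + NFIA against Cre 25 shifted downward and 6 upward (86.1%, all genes 48.9%, 18.8% higher and 30.1% lower), the 6 being Adam12, Adamts3, Adamts9, Adamts12, Adamts15 and Mmp19. For the mutant against Cre 16 shifted upward (44.4%, all genes 18.2%, 7.79% higher and 10.4% lower), and 0 passed downward, with 1 at an unadjusted p under 0.05 and 1 by limma voom. For the mutant against full-length NFIA 27 shifted upward and 6 downward (91.7%, all genes 59.4%, 35% higher and 24.3% lower). At 3-fold or more 0, 5, 0 and 6 members shifted in these comparisons, against 1.53%, 2.86%, 0.767% and 7.02% of all genes, with Mmp3 among the 6. Mmp3 and Mmp27 would not have met the minimum without the mutant libraries of day 7. The counts of shifts in both mutant comparisons may thus be partly fixed by that minimum. Timp3 had the largest shifts of the members under Cre + NFIA against Cre and under mutant against full-length NFIA, -2.28 (SE 0.12, limma adjusted p = 1.36e-11) for Cre + NFIA against Cre and 3.02 (SE 0.12, limma adjusted p = 1.29e-13) for the mutant against full-length NFIA. Mmp14 shifted by 1.35 (SE 0.081, limma adjusted p = 8.22e-10) for Cre against ctrl and -1.25 (SE 0.081, limma adjusted p = 2.63e-10) for Cre + NFIA against Cre.

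Other genes of matrix proteolysis were taken from 6 lists. Of the 30 tested, 24 were higher and 4 lower in Cre against ctrl at day 7, 5 higher and 22 lower in Cre + NFIA against Cre, and 16 higher and 1 lower in the mutant against Cre. Of all genes tested 58.8%, 63% and 17.7% passed in these comparisons, against which the counts of each list below are also to be read. Of 6 genes of plasminogen activation, which yields the plasmin that activates several MMPs, 5 were higher in Cre against ctrl, 5 lower in Cre + NFIA against Cre and 3 higher in the mutant against Cre. Plat and Plau, the plasminogen activators, fell with full-length NFIA, at -1.94 (SE 0.10) and -1.53 (SE 0.10) on the log2 scale, as did the receptor Plaur at -1.23 (SE 0.13). Of the other inhibitors of matrix proteases 3 of 10 were tested. All 3 were higher in Cre against ctrl and lower in Cre + NFIA against Cre, with Reck, a membrane-anchored MMP inhibitor, at -1.19 (SE 0.086), Spint1 at -0.43 (SE 0.13) and Cst3 at -0.33 (SE 0.069). Spint1 was low, at a mean of 0.789 FPKM in Cre and 0.323 in Cre + NFIA. Of 4 ADAMTS-like genes, which encode related proteins without a protease domain, 4 fell with full-length NFIA, including Adamtsl5 at -1.65 (SE 0.11), Adamtsl4 at -1.17 (SE 0.079) and Adamtsl1 at -0.75 (SE 0.13). Of 3 procollagen-processing genes, the C-proteinase Bmp1 and its enhancer Pcolce fell, at -1.33 (SE 0.051) and -1.36 (SE 0.075), and Pcolce2 rose, at 0.32 (SE 0.061). Of 4 genes of MMP activation and induction, the convertase Furin and the MMP inducer Bsg fell, at -0.76 (SE 0.050) and -0.23 (SE 0.054), and Pcsk7 was at -0.091 (SE 0.066), which did not pass. Of 10 cysteine, aspartic and serine matrix proteases 6 fell and 4 rose, among them the cathepsins Ctsk at -1.62 (SE 0.12) and Ctsl at -1.20 (SE 0.083), both lower, and the serine protease Htra3 at 1.51 (SE 0.089), higher.

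At day 0, 7 of the same 30 genes were higher and 6 lower in Cre + NFIA against Cre, 8 higher and 7 lower in the mutant against Cre, and 2 higher and 4 lower in Cre against ctrl, where 27.6%, 18.3% and 3.33% of all genes passed. The lists were not chosen independently of these data.

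The other 37 of the 73 members did not reach the minimum, and 13 of them had 0 reads in every library. They were Adam2, Adam3, Adam4, Adam5, Adam7, Adam11, Adam18, Adam20, Adam21, Adam22, Adam24, Adam25, Adam28, Adam29, Adam30, Adam32, Adam34, Adam39, Adamts8, Adamts13, Adamts17, Adamts18, Adamts19, Adamts20, Mmp1a, Mmp1b, Mmp7, Mmp8, Mmp10, Mmp12, Mmp13, Mmp16, Mmp20, Mmp21, Mmp24, Mmp25 and Timp4. Timp4, the TIMP known for adipose and heart expression, reached at most 7 reads. In a library a count of 0 allows a level of up to 3 reads, or 0.205 to 0.388 per 1000000 reads, by counting error alone. Just outside the minimum, Adam4 was at 1.08 FPKM in 1 library, and just inside it Mmp3 reached 1 FPKM in 3 libraries, Adamts16 in 4 and Mmp27 in 5.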

How the data were processed

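The authors sequenced stranded mRNA libraries as paired reads, aligned them to mm9 with STAR 2.5.3a, kept unique alignments, counted matched-strand reads per gene and deposited FPKM per library. The annotation they counted is not given in the sources used here. Multiplied by gene length and scaled, 100% of deposited FPKM values were whole reads within 0.01, giving totals of 7.73 to 14.62 M reads per library. In each library 3 reads equal 0.205 to 0.388 per 1000000.

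Groups followed the labels, 3 libraries in each of 8. Differences were fitted with limma 3.58.1 (R 4.3.3, trend) on log2(FPKM + 1) over the 12640 genes with at least 1 FPKM in at least 3 libraries. P-values were two-sided and adjusted by Benjamini-Hochberg over all of them. Each model within a day held its 12 libraries, and the others held all 24. Members named with every value were the TIMPs and those passing at 3-fold or more within a day, and up to 3 genes per list by size of change in Cre + NFIA against Cre at day 7 were named. The members and lists were chosen with earlier results of these data known. Replicates differed by more than sampling noise, at 2.17 to 15.1 chi-square per degree of freedom. On simulated data of Cre + NFIA against Cre at day 7, with 12215 genes tested, the fit recovered 190 of 197 genes changed 2-fold, with 14 false calls. For the difference of that comparison between the days it recovered 166 of 199, with 3 false calls. The simulation gave every gene the same dispersion, and equal means in all groups but the changed one, so its recovery and false calls need not hold for these data. Only well-counted genes were changed, and far fewer than were called in the data, so recovery of members with few reads was not measured. Alternatives were pseudocounts of 0.1 and 5, filters, scalings, limma without trend, voom on recovered reads, replicate blocks, other sets of libraries, a 3-fold minimum and leaving out each library. Promoter sequences are RefSeq's on GRCm38.p6, and gene positions are from GENCODE vM1 on mm9. The positions serve the reader and were not used in any test.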

Additional observations from a re-analysis of the deposited data

Results flagged for a closer look

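Differences between cell types that differed between day 0 and day 7 by at least 3-fold, at a limma adjusted p under 0.05 over 24 libraries, are listed here as values. For Cre + NFIA against Cre they were -1.65 for Adam33, -1.59 for Mmp11, -1.60 for Timp1, -1.70 for Timp2 and -2.28 for Timp3, each the log2 fold change at day 7 less that at day 0. Timp3 and Adam33 were higher with full-length NFIA at day 0, and Timp3, Mmp11, Timp1 and Timp2 were lower with it at day 7. For the mutant against full-length NFIA the values were 2.65 for Adam33, 1.98 for Mmp11, 1.77 for Mmp14, 1.65 for Mmp3, 2.18 for Timp2 and 3.02 for Timp3. The value of Mmp3 is a description only, since it met the minimum through the mutant libraries of day 7 alone and had at most 4 reads in a library at day 0. The comparisons share the Cre + NFIA libraries. In each of these comparisons 3 libraries stood in each of 4 groups.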

How the results depend on the processing

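Counts of members passing stayed within 1.5 times of those given under pseudocounts, filters, scalings, limma without trend, voom and all 24 libraries, while other settings moved some. For Cre against ctrl at day 0, 0 passed with only those groups in the model, and 4 to 6 without a library. With a 3-fold minimum, counts at day 7 were 0 for Cre against ctrl, 4 for Cre + NFIA against Cre, 1 for the mutant against Cre, 5 for the mutant against Cre + NFIA and 0 for Cre + NFIA against ctrl. At day 0 they were 0, 2, 0, 2 and 0 in that order, from day 0 to day 7 3 in ctrl, 0 in Cre, 7 in Cre + NFIA and 2 in the mutant, and for the differences between days 0, 5, 0 and 6. The smaller counts follow from the higher minimum, and the 1 member in the mutant against Cre at day 7 was Mmp3, which met the filter through the mutant libraries alone. Replicate numbers were not used as pairs in the main fits, and the labels do not say whether equal numbers share a batch. Deviations of same-numbered libraries correlated at a mean of -0.16 to 0.056 over comparisons, and singly at -0.27 to 0.20. Such values cannot show that a shared batch was absent. A replicate block gave 28, 31, 16, 31 and 13 members at day 7 in the order above, and 7, 20, 18, 14 and 24 at day 0. For 47 differences of the 7 members named with every value, 797 alternative values kept the direction. Of these 486 stayed past the threshold and 29 did not under other settings, and 254 did and 28 did not without a library. Those lost were Adam33 in 4 comparisons, Mmp11 and Timp2 in the mutant against Cre at day 0, Timp1 in the mutant against Cre at day 7, Timp1 and Timp3 in Cre against ctrl at day 0, Mmp11 in Cre + NFIA against ctrl at day 7 and Timp1 in Cre + NFIA against ctrl at day 0. Under quantile normalization or median-of-ratios size factors no passing member turned direction, and the median gene shifted by -0.12 to 0.11 on the log2 scale. The cause of these changes was not tested.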

Other observations

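Partners, substrates and other genes around the proteases, from 5 further lists, are given as values. Of the 31 tested, 19 were higher and 6 lower in Cre against ctrl at day 7, 5 higher and 21 lower in Cre + NFIA against Cre, and 5 higher and 3 lower in the mutant against Cre, where 58.8%, 63% and 17.7% of all genes tested passed. Of 7 partners of ADAM10 and ADAM17, 3 rose and 3 fell with full-length NFIA. The tetraspanins Tspan15 and Tspan14, which escort ADAM10, rose at log2 fold changes of 2.49 (SE 0.11) and 1.55 (SE 0.069), and Tspan5, another of them, fell at -1.003 (SE 0.11). Of 9 substrates of ADAM shedding 7 fell. Dlk1, a preadipocyte factor cut by ADAM17, was at 3.91 ± 0.449 FPKM in ctrl, 12.6 ± 0.711 in Cre, 1.28 ± 0.184 in Cre + NFIA and 5.55 ± 0.463 in the mutant at day 7 (SD, n = 3), and fell with full-length NFIA at -2.58 (SE 0.093, limma adjusted p = 3.32e-09). The growth factor Nrg1 and the chemokine Cx3cl1 fell at -1.999 (SE 0.15) and -1.52 (SE 0.077).

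Of 5 proteoglycan substrates 2 rose and 2 fell in Cre + NFIA against Cre at day 7, with Ncan at 2.58 (SE 0.11), Vcan at -1.66 (SE 0.16) and Bgn at -1.28 (SE 0.081). Ncan was low, at a mean of 0.119 FPKM in Cre and 5.70 in Cre + NFIA, so its fitted change depends on the pseudocount. Of 3 endocytic receptors of the LRP list, which clear proteases and their complexes or collagen, 3 fell, with Mrc2 at -1.51 (SE 0.083), Lrp1 at -1.42 (SE 0.080) and Lrp8 at -0.48 (SE 0.10). Of 7 subunits of AP-1 6 fell, with Fosl2 at -1.25 (SE 0.069), Junb at -1.11 (SE 0.13) and Fosl1 at -0.92 (SE 0.079). In the mutant against Cre at day 7 Fosl2 rose, at 0.36 (SE 0.069). At day 0, 9 of the 31 genes were higher and 5 lower in Cre + NFIA against Cre, and 6 higher and 5 lower in the mutant against Cre, where 27.6% and 18.3% of all genes passed.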
